A study of Mus musculus with 9 samples.

Results

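The lysosomal hydrolases, the proteins of the lysosomal membrane and the proteins that sort hydrolases to the lysosome were examined in neutrophils of mice that carry an activating form of RagC. The group was chosen by name and held 47 genes, of which 25 encode soluble lumenal proteins, 13 membrane proteins and 9 sorting proteins. Cathepsins and proton pump subunits were left out of the group and are given as separate lists. Of the 47 genes, 37 had a row among the 7197 genes of the table, and 34 of these reached the mean of 10 normalized counts needed for testing, among 6673 genes tested.

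Lysosomes digest lipids, glycans and proteins with acid hydrolases that are made in the endoplasmic reticulum, tagged with a phosphorylated mannose in the Golgi and carried onward by sorting receptors. Their limiting membrane holds heavily glycosylated shield proteins and transporters that export the products. RagC is a small GTPase on the lysosomal surface that helps recruit mTORC1 in response to nutrients, and it also brings Tfeb, a transcription factor of lysosomal genes, to mTORC1, which phosphorylates Tfeb and keeps it in the cytoplasm.

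Neutrophils were sorted from bone marrow as CD45+ CD11b+ Ly6G+ cells of mice aged 2 months. Rragc+/+ mice (5 libraries) carried 2 unedited alleles, and RragcS74N/+ mice (4 libraries) carried 1 allele that encodes a serine-to-asparagine change, introduced together with silent changes. The edited allele is present in every cell of the animal, so effects that arise within neutrophils and effects of other tissues cannot be told apart in these samples. RNA was read from transcript 3′ ends, with 1214295 to 1973957 reads per library over the listed genes, and values are given as normalized counts, which are read counts divided by 1 size factor per library. These values do not scale with transcript length. Every test compared a gene between libraries, while mean levels of different genes served to choose members and to form sums. The published text describes profiling of several young mice of each genotype, and more RragcS74N/+ mice than there are libraries here. No label ties a library to an animal, and if libraries of a genotype share an animal the p-values measure only the spread between these libraries.

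Rragc itself, the edited gene, was at 71.0 ± 10.3 normalized counts in Rragc+/+ and 65.8 ± 9.52 in RragcS74N/+ libraries (exact two-sided permutation test, p = 0.484), and total counts cannot tell the 2 alleles apart. All 13 neutrophil marker genes were listed, among them Ly6g, S100a8 and S100a9, and their summed level ranged from 146356 to 207856 in Rragc+/+ and from 134493 to 230527 in RragcS74N/+ libraries. Rragc+/+ replicate 2 stood apart from the rest, with a mean Spearman correlation with the other libraries of 0.901 against 0.935 to 0.954 for the other 8 libraries. Because that library and Rragc+/+ replicate 5 both sat at the extremes for many members, the class medians and counts of members are also given without each of them.

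No member passed the adjusted threshold. The limma adjusted p of the 34 tested members ranged from 0.713 to 0.979, and 0% of all tested genes passed. At an unadjusted limma p under 0.05, 3 members were lower in RragcS74N/+ and 0 were higher. Of all tested genes, 5.81% were under this threshold, with 3.81% lower and 2.01% higher. The 3 were the cholesterol carrier Npc2, the acid lipase Lipa and the membrane receptor Scarb2. With edgeR and with DESeq2 on the recovered reads, the adjusted count was also 0, and 4 members were lower at an unadjusted p under 0.05, the additional gene being Cd68. At that threshold 5.10% of all tested genes were lower with edgeR and 4.87% with DESeq2. A further gene, the clathrin adaptor Gga3, was the 1 member whose libraries did not overlap between genotypes, where 1.02% of all tested genes were separated in that direction.

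Promoter sequence is shown for these 4 lower members, together with 2 members whose promoters hold the CACGTG hexamer that Tfeb and its relatives bind. Each line gives the 100 bases before the annotated start site, read 5′ to 3′ on the strand of the gene, from the RefSeq promoter table of assembly GRCm38.p6. The authors aligned reads to another assembly, so these coordinates hold for GRCm38.p6 alone. Capitals mark each CACGTG, a palindrome that reads the same on both strands.
Npc2 (chr12:84773113-84773212, minus strand): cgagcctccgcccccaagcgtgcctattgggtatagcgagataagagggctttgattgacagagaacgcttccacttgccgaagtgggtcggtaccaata
Lipa (chr19:34527475-34527574, minus strand): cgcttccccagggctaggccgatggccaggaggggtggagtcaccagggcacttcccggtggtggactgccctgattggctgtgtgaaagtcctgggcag
Scarb2 (chr5:92505658-92505757, minus strand): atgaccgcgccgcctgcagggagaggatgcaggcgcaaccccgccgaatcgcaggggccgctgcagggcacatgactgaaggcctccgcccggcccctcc
Gga3 (chr11:115603917-115604016, minus strand): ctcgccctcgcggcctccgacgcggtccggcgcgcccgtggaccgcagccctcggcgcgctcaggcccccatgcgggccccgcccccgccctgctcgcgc
Lamp1 (chr8:13159061-13159160, plus strand): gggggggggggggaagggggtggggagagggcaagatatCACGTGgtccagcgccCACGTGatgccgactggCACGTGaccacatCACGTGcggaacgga
Igf2r (chr17:12769707-12769806, minus strand): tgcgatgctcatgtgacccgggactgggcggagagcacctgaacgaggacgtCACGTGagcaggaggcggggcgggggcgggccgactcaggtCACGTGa

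Lamp1 held 4 CACGTG matches, whose first bases lay 61, 45, 28 and 15 bases before the start site. Igf2r held 2, at 48 and 7 bases before it. The promoters of Npc2, Lipa, Scarb2 and Gga3 held 0 in the searched window of 250 bases before to 50 bases after the start site. A match is a description of the letters and not of binding, and no match says only that these letters are not in this window.

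Across the group, 42 of the 47 members had a promoter in the table, and 12 of them, or 28.6%, held CACGTG. The share among all 27025 genes with a promoter was 8.09%, and among the 5684 genes of the expression table with a promoter it was 12.0%. The longer palindrome TCACGTGA, which contains the hexamer, was in 5 members, or 11.9%, against 1.12% of all genes. The hexamer was in 7 of the 10 members without a row in the table and in 5 of the 32 listed members with a promoter, or 15.6%. The 4 tested members with the hexamer were Cln3, Gnptg, Igf2r and Lamp1, of which 2 had a lower mean log2 value in RragcS74N/+, and their median log2 change was -0.10. Of the 25 tested members with a promoter and no hexamer, 22 had a lower mean, with a median of -0.20. The lowest log2 changes were among members without the hexamer, which is much the larger set, and the difference between these sets was not tested. Cln3 was counted as having the hexamer although another of its annotated promoters lacked it. The 5 members without a promoter in the table are in neither set.

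**Figure D1:**
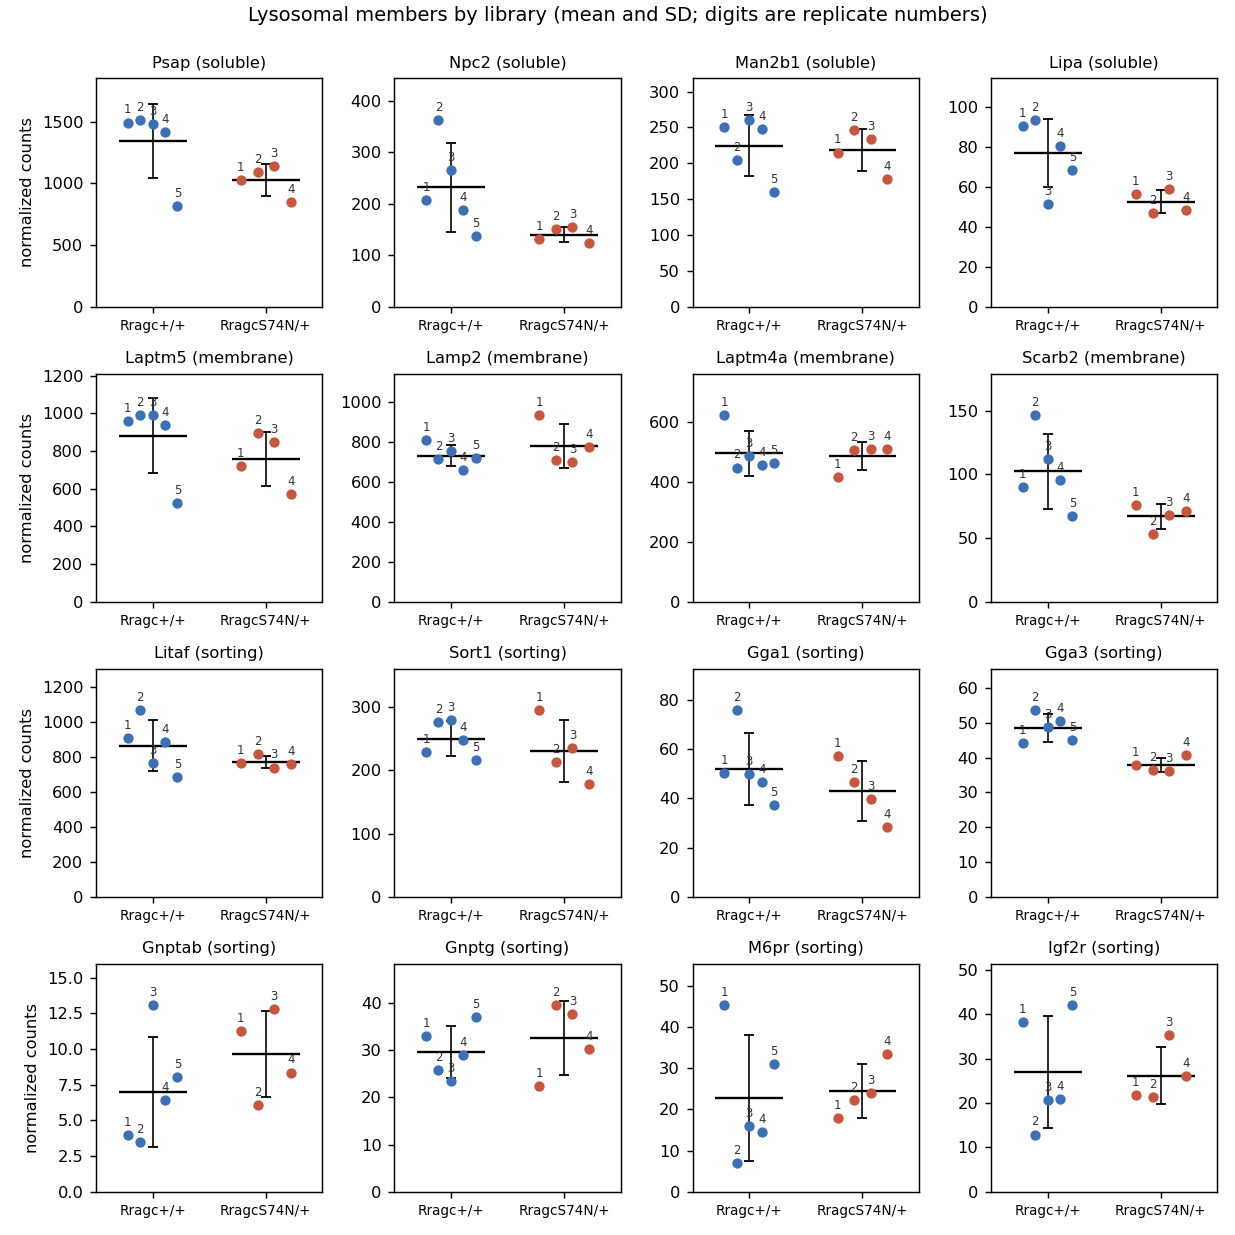
Normalized counts (vertical axis, from 0, a separate scale for each gene) of 16 members in the 5 Rragc+/+ libraries (blue) and the 4 RragcS74N/+ libraries (red). Points are libraries with their replicate numbers, horizontal lines are means and vertical bars are SDs. The genotypes are separated only for Gga3, and Rragc+/+ replicate 5 is the lowest Rragc+/+ library for Psap, Npc2, Man2b1, Laptm5, Scarb2, Litaf, Sort1 and Gga1.

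The soluble lumenal proteins do the digestion or handle its substrates and products. Of the 16 that were tested, 15 had a lower mean log2 value in RragcS74N/+ libraries, or 93.8%, where 46.6% of all tested genes lay below 0. Their median log2 change was -0.19, with a range from -0.65 to 0.05, while the median of all tested genes was 0.02. Of the 16, 2 were lower at an unadjusted limma p under 0.05, where 3.81% of all tested genes were. The low median rests mostly on small differences, and the genotypes overlapped for all 16.

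Npc2, a soluble protein that binds cholesterol in the lumen and hands it to Npc1 for export, was the member with the lowest log2 change. Its normalized counts were 207, 363, 265, 187 and 136 in Rragc+/+ replicates 1 to 5 and 131, 151, 154 and 123 in RragcS74N/+ replicates 1 to 4. The 4 RragcS74N/+ libraries lay close together, and of the Rragc+/+ libraries replicate 5 alone fell among them while replicate 2 was far above. The means were 232 ± 86.8 and 140.0 ± 15.3 (SD, n = 5 and 4). The log2 change was -0.65 with an SE of 0.24, an unadjusted p of 0.0175 and an adjusted p of 0.713 by limma. Without Rragc+/+ replicate 2 it was -0.47, and without replicate 5 it was -0.82. The unadjusted p of Npc2 stayed under 0.05 in each of the 19 alternatives, which include the removal of each library.

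Lipa, the acid lipase that frees cholesterol and fatty acids from lipoprotein lipids, had 90.2, 93.5, 51.5, 80.4 and 68.2 normalized counts in the Rragc+/+ libraries and 56.4, 46.8, 58.7 and 48.1 in the RragcS74N/+ libraries. Replicate 3 was the 1 Rragc+/+ library within the RragcS74N/+ range, and the other 4 lay above it. The means were 76.8 ± 17.2 and 52.5 ± 5.96 (SD, n = 5 and 4). Its log2 change was -0.52 (SE 0.20, limma unadjusted p = 0.0243, adjusted p = 0.713). The unadjusted p stayed under 0.05 in 16 of 19 alternatives. It was 0.0558 without Rragc+/+ replicate 1, 0.0677 without RragcS74N/+ replicate 2 and 0.0585 without RragcS74N/+ replicate 4.

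Psap encodes prosaposin, which is cut into the saposins that help hydrolases reach their sphingolipid substrates. Its values were 1492, 1516, 1478, 1416 and 814 in Rragc+/+ and 1026, 1091, 1142 and 849 in RragcS74N/+ libraries. The genotypes overlapped, since Rragc+/+ replicate 5 was the lowest of all 9 libraries, while the other 4 Rragc+/+ libraries lay above every RragcS74N/+ library. How many of all tested genes would be separated without that library was not counted. The means were 1343 ± 298 and 1027 ± 128 (SD, n = 5 and 4). The log2 change was -0.36 (SE 0.20) with a limma unadjusted p of 0.0950, and without that library it was -0.53 with an unadjusted p of 0.00414 and an adjusted p of 0.326. When each library's trend with the GC content of transcript 3′ ends was removed, the log2 change of Psap was -0.15.

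Man2b1, the acid alpha-mannosidase of glycoprotein breakdown, did not follow this direction beyond its spread. It had 250.3, 204, 261, 248 and 160.4 normalized counts in Rragc+/+ and 215, 246, 234 and 178 in RragcS74N/+ libraries. The ranges overlapped almost wholly, with the lowest values in Rragc+/+ replicate 5 and RragcS74N/+ replicate 4. Its log2 change was -0.03 (SE 0.19, limma adjusted p = 0.966).

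The remaining soluble members all overlapped between genotypes. Among the hydrolases of glycolipids and glycans and their activators, the beta-hexosaminidase subunit Hexa had a log2 change of -0.34. The fucosidase Fuca1 was at -0.32, the ganglioside activator Gm2a at -0.18 and the beta-glucuronidase Gusb at -0.14. The sialidase Neu1 was at -0.14, the second fucosidase Fuca2 at -0.10 and the sulfatase Ids at -0.05. The acid sphingomyelinase Smpd1 was at -0.30, the acid phosphatase Acp2 at -0.26, the thioesterase Ppt1 at -0.21 and the peptidase Tpp1 at -0.12. The acid ceramidase Asah1, at 0.05, was the 1 soluble member above 0. Leaving out a single library moved the log2 change of several of these genes. Smpd1 was at -0.04 without RragcS74N/+ replicate 4 and Acp2 at -0.01 without Rragc+/+ replicate 2. Neu1 was at -0.04 and Ids at 0.10 without RragcS74N/+ replicate 4, and Tpp1 was at 0.07 without Rragc+/+ replicate 1. Without Rragc+/+ replicate 2, Fuca1 was at -0.19, Ppt1 at -0.07 and Gm2a at -0.07. Removal of Rragc+/+ replicate 5 moved genes the other way, with Fuca1 at -0.48, Smpd1 at -0.43, Ppt1 at -0.37 and Gm2a at -0.32. Unadjusted p-values of these 12 members by limma ran from 0.141 for Hexa to 0.816 for Ids. With the GC trend removed, Hexa moved to -0.04 and Smpd1 to -0.04, whereas Npc2 and Lipa were at -0.58 and -0.56. In the fit without the GC trend 13 of the 16 soluble members and 49.2% of all tested genes lay below 0. The members lower at an unadjusted p under 0.05 in that fit were again 3, Npc2, Lipa and Scarb2, beside 2.47% of all tested genes.

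Arsb and Sgsh, the sulfatases of dermatan and heparan sulfate breakdown, were listed below the mean needed for testing. Arsb ranged from 2.34 to 11.9 normalized counts in Rragc+/+ and from 6.63 to 13.6 in RragcS74N/+ libraries. Sgsh ranged from 2.01 to 17.5 and from 3.05 to 9.95. Both rested on as few as 2 reads in a library, and a difference was not detectable at this depth. Gaa, Gla, Glb1, Manba, Arsa, Naglu and Dnase2a were not analysed here.

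Membrane members were more mixed. Of the 11 tested, 7 had a lower mean log2 value in RragcS74N/+. The class median was -0.12 on the log2 scale, with a range from -0.57 to 0.10 over the 11. Of these, 1 was lower at an unadjusted limma p under 0.05, where 3.81% of all tested genes were. Mcoln1, the lysosomal calcium channel, and Slc17a5, the sialic acid exporter, were not analysed here.

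Scarb2 encodes a lysosomal membrane protein that carries glucocerebrosidase to the lysosome and takes part in lipid export. It had 90.2, 147, 112, 95.7 and 67.2 normalized counts in Rragc+/+ and 76.3, 52.9, 67.8 and 71.1 in RragcS74N/+ libraries. As with Npc2, Rragc+/+ replicate 5 was the 1 library of its genotype within the RragcS74N/+ range, and replicate 2 was the highest. The means were 102 and 67.0, with coefficients of variation of 29.0% and 15.0% (n = 5 and 4). Its log2 change was -0.57 (SE 0.22, limma unadjusted p = 0.0223, adjusted p = 0.713), -0.43 without Rragc+/+ replicate 2, -0.71 without replicate 5 and -0.54 with the GC trend removed. The unadjusted p stayed under 0.05 in 17 of 19 alternatives and was 0.0509 without Rragc+/+ replicate 3 and 0.0804 without RragcS74N/+ replicate 2.

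Cd68, a heavily glycosylated endolysosomal protein also used as a macrophage marker, ranged from 55.1 to 165 normalized counts in Rragc+/+ and from 58.5 to 77.3 in RragcS74N/+ libraries. Its log2 change was -0.54 (SE 0.26, limma unadjusted p = 0.0556), and its unadjusted p was 0.0296 with edgeR and 0.0274 with DESeq2. Removal of Rragc+/+ replicate 2 brought the log2 change to -0.36, removal of replicate 5 brought it to -0.75, and removal of the GC trend brought it to -0.35.

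The 3 membrane members with the highest mean values were Laptm5, Lamp2 and Laptm4a. Laptm5, which directs immune receptors to lysosomal degradation, had 960.2, 993, 989, 938 and 525 normalized counts in Rragc+/+ and 718, 894, 847 and 573 in RragcS74N/+ libraries. Its pattern resembled that of Psap, with 4 Rragc+/+ libraries above every RragcS74N/+ library and replicate 5 below them all. The log2 change was -0.20 (SE 0.21, limma adjusted p = 0.782), -0.38 without Rragc+/+ replicate 5 (unadjusted p = 0.0456, adjusted p = 0.361), -0.07 without RragcS74N/+ replicate 4, and 0.05 with the GC trend removed.

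Lamp2, a shield protein of the limiting membrane that also serves chaperone-mediated autophagy, had 807, 715, 755, 661 and 718 normalized counts in Rragc+/+ and 936, 708, 697 and 773 in RragcS74N/+ libraries. One RragcS74N/+ library, replicate 1, lay above the Rragc+/+ range and the other 3 lay within it. The log2 change was 0.08 (SE 0.15, limma adjusted p = 0.869), and -0.10 with the GC trend removed. Laptm4a, a small protein of late endosomes and lysosomes, had 626, 449, 487, 456 and 463 normalized counts in Rragc+/+ and 418, 507, 512 and 512 in RragcS74N/+ libraries. Its genotypes overlapped, with 1 high Rragc+/+ and 1 low RragcS74N/+ library, and its log2 change was -0.02 (SE 0.16).

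Lamp1, whose promoter with 4 hexamers is printed above, ranged from 201 to 369 normalized counts in Rragc+/+ and from 170.3 to 262 in RragcS74N/+ libraries. It had a log2 change of -0.26 (SE 0.20, limma adjusted p = 0.729), which was -0.13 without Rragc+/+ replicate 2, -0.16 without RragcS74N/+ replicate 4 and -0.16 with the GC trend removed. Cln3, the membrane protein affected in juvenile Batten disease, was at -0.31 (-0.18 without Rragc+/+ replicate 2) and the heparan sulfate acetyltransferase Hgsnat at -0.12 (0.10 without that library). The cholesterol exporter Npc1, partner of Npc2, was at 0.03, the tetraspanin Cd63 at 0.07 and the cystine exporter Ctns at 0.10. Ctns had as few as 6 reads in a library.

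**Figure D2:**
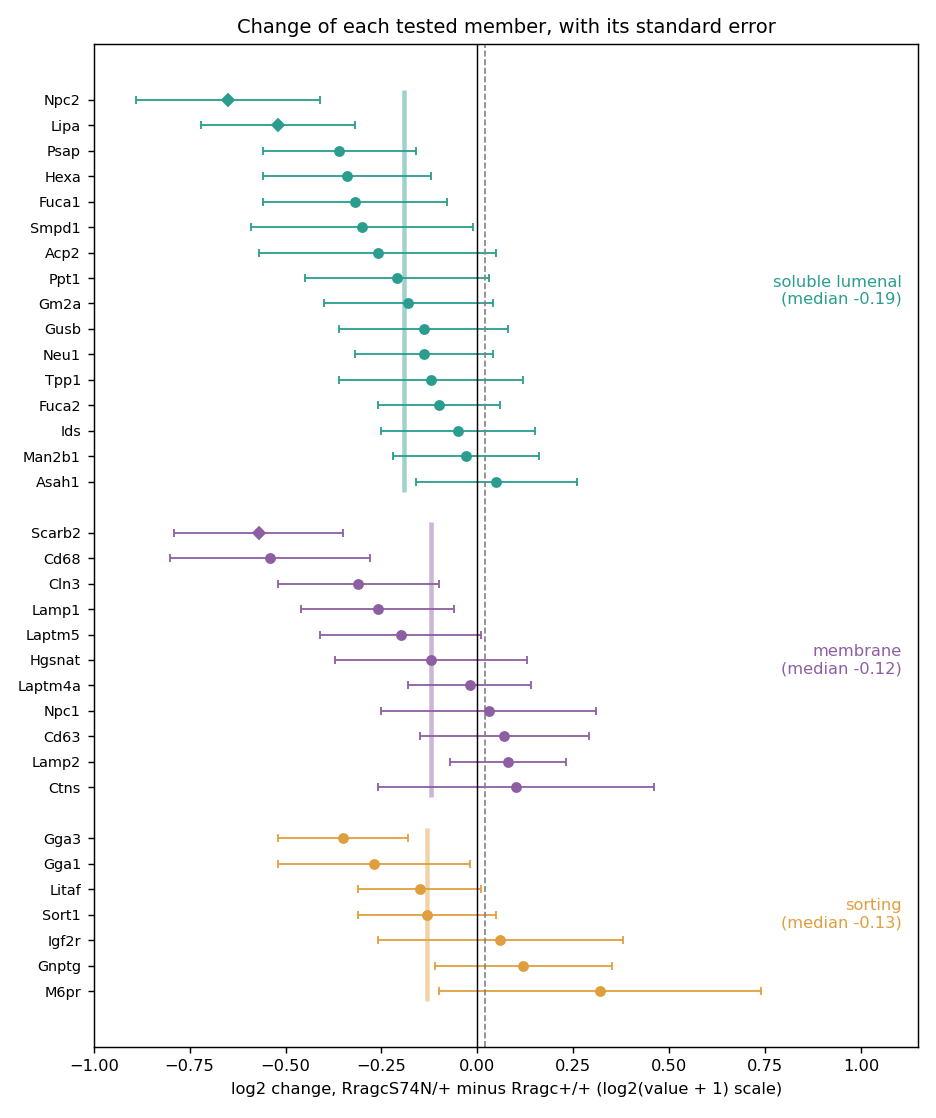
Log2 change (horizontal axis, RragcS74N/+ minus Rragc+/+, on the log2(value + 1) scale) of the 34 tested members, with bars for 1 SE. Thick lines are the class medians of -0.19, -0.12 and -0.13, the dashed line is the median of all tested genes, and diamonds mark the 3 members with an unadjusted p under 0.05. In the soluble class 15 of 16 points lie left of 0.

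Most of the sorting proteins tag hydrolases or help carry them to the lysosome, and the class also holds Litaf, a late endosomal membrane protein. Of the 7 tested, 4 had a lower mean log2 value in RragcS74N/+, the median log2 change was -0.13 with a range from -0.35 to 0.32, and 0 had an unadjusted p under 0.05. Gga2 was not analysed here. Gnptab and Gnptg encode subunits of the phosphotransferase that starts the mannose tag. Gnptab had 3.95, 3.51, 13.1, 6.43 and 8.02 normalized counts in Rragc+/+ and 11.3, 6.10, 12.8 and 8.36 in RragcS74N/+ libraries, was below the mean needed for testing and rested on 3 to 17 reads. Gnptg had 32.9, 25.7, 23.4, 28.9 and 37.1 in Rragc+/+ and 22.5, 39.6, 37.7 and 30.3 in RragcS74N/+ libraries. Neither gene separated the genotypes, and the log2 change of Gnptg was 0.12 (SE 0.23).

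The mannose-phosphate receptors M6pr and Igf2r varied widely within Rragc+/+. M6pr had 45.4, 7.01, 15.9, 14.5 and 31.1 normalized counts in Rragc+/+ and 17.9, 22.4, 24.1 and 33.4 in RragcS74N/+ libraries. Igf2r had 38.2, 12.9, 20.6, 20.9 and 42.1 in Rragc+/+ and 21.9, 21.3, 35.4 and 26.1 in RragcS74N/+ libraries. For both receptors every RragcS74N/+ library lay within the Rragc+/+ range, Rragc+/+ replicates 1 and 5 were the highest of their genotype and replicate 2 was the lowest of all libraries. The coefficient of variation within Rragc+/+ was 67.5% for M6pr and 46.7% for Igf2r. The log2 changes were 0.32 (SE 0.42) and 0.06 (SE 0.32), and that of Igf2r was -0.06 with edgeR, so no direction can be given for it.

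Sort1, the sortilin receptor that carries several hydrolases independently of mannose, had 229.8, 277, 279, 248 and 217 normalized counts in Rragc+/+ and 296, 213, 236 and 179 in RragcS74N/+ libraries. Litaf, a late endosomal membrane protein, had 911, 1070.3, 766, 883 and 688 in Rragc+/+ and 764, 816, 739.6 and 762 in RragcS74N/+ libraries. Both overlapped between genotypes, and their log2 changes were -0.13 (SE 0.18) and -0.15 (SE 0.16).

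The Gga proteins are clathrin adaptors that gather receptors with their cargo at the trans-Golgi network. Gga3 had 44.1, 53.8, 48.7, 50.6 and 45.1 normalized counts in Rragc+/+ and 37.8, 36.6, 36.2 and 40.8 in RragcS74N/+ libraries. Every RragcS74N/+ library lay below every Rragc+/+ library. The means were 48.5 ± 3.96 and 37.8 ± 2.07 (SD, n = 5 and 4). The log2 change was -0.35 (SE 0.17, limma unadjusted p = 0.0590, adjusted p = 0.713), and it ranged from -0.38 to -0.31 as each library was left out. Gga1 had 50.1, 76.0, 49.7, 46.6 and 37.1 in Rragc+/+ and 57.0, 46.8, 39.9 and 28.2 in RragcS74N/+ libraries, which overlapped. Its log2 change was -0.27 (SE 0.25), -0.13 without Rragc+/+ replicate 2, -0.09 without RragcS74N/+ replicate 4 and 0.10 with the GC trend removed.

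Set side by side, the soluble class had 15 of 16 tested members below 0 and a median log2 change of -0.19. The membrane and sorting classes together had 11 of 18 below 0, or 61.1%, and a median of -0.12. The size of the contrast depended on the fit. Among members with a mean of at least 50, 12 of 13 soluble members (median -0.18) lay below 0. So did 9 of 11 membrane and sorting members (median -0.15), and the membrane median alone was -0.20. With the GC trend removed, 13 of 16 (median -0.20) and 12 of 18 (median -0.08) lay below 0. The shares were then closer together and the medians further apart. Without RragcS74N/+ replicate 2, 16 of 16 (median -0.20) and 11 of 18 (median -0.08) lay below 0, a wider contrast. The difference between the classes was not tested, since genes measured in the same libraries are not replicates of a condition. The summed normalized counts of the tested soluble members were 3062 ± 572 in Rragc+/+ and 2467 ± 268 in RragcS74N/+ libraries (SD, n = 5 and 4). For the membrane members the sums were 3375 ± 379 and 3139 ± 85.5, and for the sorting members they were 1294 ± 160.2 and 1166 ± 52.3. The sums overlapped between genotypes in all 3 classes. Psap alone made up 1343 ± 298 and 1027 ± 128 of the soluble sums. Litaf alone made up 864 ± 147 and 770.4 ± 32.5 of the sorting sums, which is most of them.

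The libraries differed along the same direction within each genotype. Rragc+/+ replicate 2 was the highest of all 9 libraries for 19 of the 34 tested members, while it was the highest for 25.9% of all tested genes. Rragc+/+ replicate 5 was the lowest for 10 members, against 12.1% of all tested genes, and RragcS74N/+ replicate 4 was the lowest for 12, against 14.1%. The summed soluble members were at 2098 in Rragc+/+ replicate 5 and 2067 in RragcS74N/+ replicate 4, and between 2566 and 3588 in the other libraries. M6pr, Igf2r and Cd63 ran against this order, since each was at its lowest in Rragc+/+ replicate 2.

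**Figure D3:**
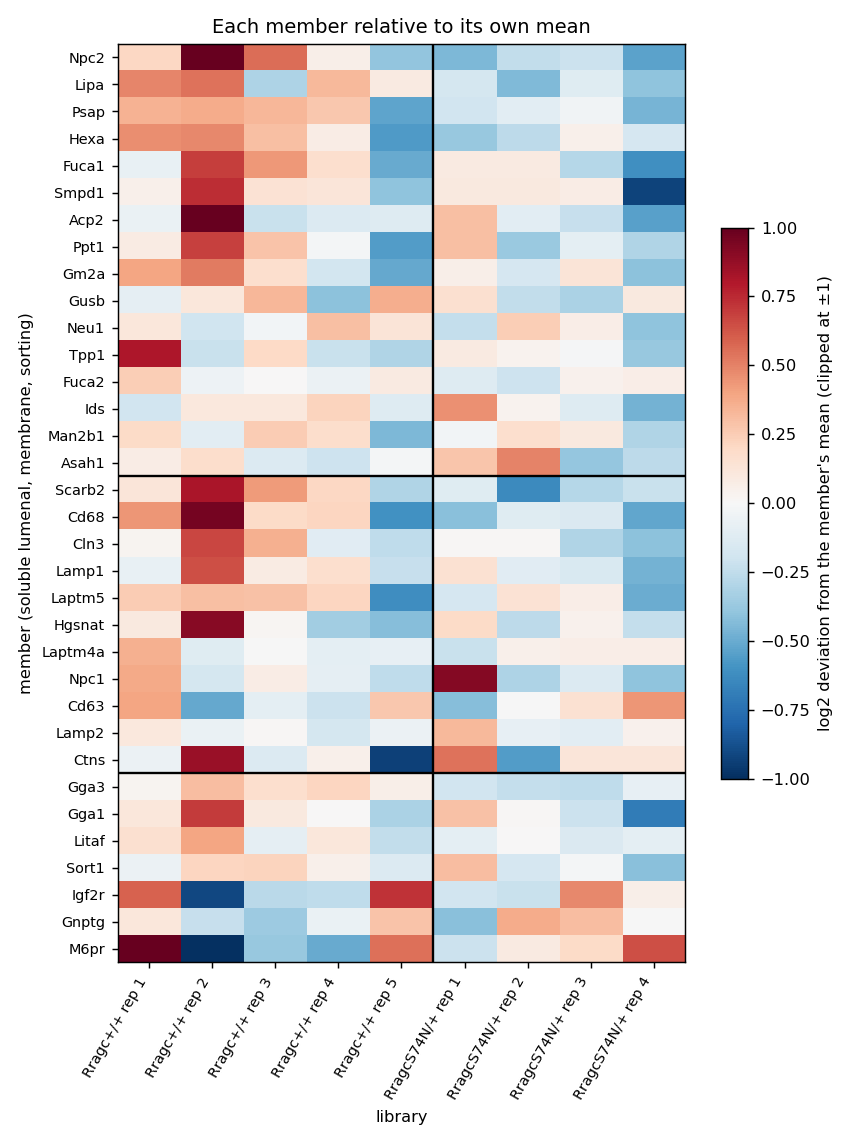
Log2 deviation of each tested member (rows, by class) from its own mean over the 9 libraries (columns), clipped at 1 in either direction, with red above and blue below the mean. Rragc+/+ replicate 2 is the highest library for 19 of 34 members, and Rragc+/+ replicate 5 and RragcS74N/+ replicate 4 are mostly blue, with 25 and 26 of 34 members below their means.

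Leaving out Rragc+/+ replicate 5 raised the number of members lower at an unadjusted p under 0.05 from 3 to 8, beside 8.06% of all tested genes in the same fit. The 8 were Npc2, Lipa, Psap, Hexa and Fuca1 of the soluble class and Scarb2, Cd68 and Laptm5 of the membrane class. Their adjusted p-values by limma were 0.326 to 0.361. Leaving out RragcS74N/+ replicate 2 left Npc2 as the only such member, beside 2.49% of all tested genes. With array quality weights, which down-weight libraries that stand apart, 6 members were lower, beside 6.46% of all tested genes. Without Rragc+/+ replicate 2 the 3 members with all libraries were again the ones under the threshold, beside 1.87% of all tested genes. The soluble median stayed below 0 in each of these fits, between -0.32 without Rragc+/+ replicate 5 and -0.14 without Rragc+/+ replicate 2. The membrane median ran from -0.24 to -0.05 and the sorting median from -0.18 to -0.02.

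**Figure D4:**
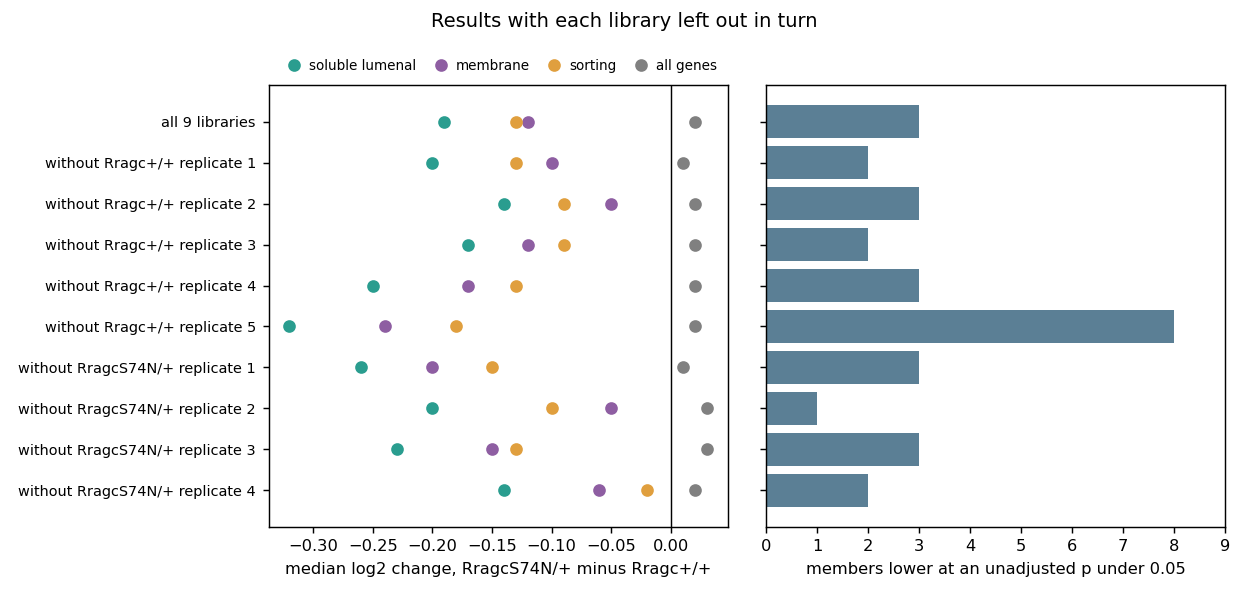
Left, median log2 change (RragcS74N/+ minus Rragc+/+) of the soluble, membrane and sorting members and of all tested genes with all 9 libraries and with each library left out. Right, number of the 34 tested members lower in RragcS74N/+ at an unadjusted p under 0.05, which is 3 with all libraries, 8 without Rragc+/+ replicate 5 and 1 without RragcS74N/+ replicate 2.

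Other genes of the lysosome were read from lists that hold no member. Of 13 tested lysosomal enzymes outside the group, mostly hydrolases, 5 had a lower mean log2 value in RragcS74N/+. The median log2 change of the 13 was 0.15, against -0.19 for the soluble members. With the GC trend removed the medians were 0.06 and -0.20. None of these 13 had an unadjusted p under 0.05 by limma. By rank of p the first was Pcyox1, a prenylcysteine oxidase and not a hydrolase, at 0.67 (unadjusted p = 0.0632). Of 17 other lysosomal membrane proteins, 10 had a lower mean, the median was -0.24 (-0.13 with the GC trend removed), and 1, the nucleoside transporter Slc29a3, was lower at an unadjusted p of 0.0154 with a log2 change of -1.28. The difference between the soluble members and the 13 other enzymes was not tested.

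Among 9 cathepsins, 5 had a lower mean, with a median of -0.06. Ctsd, the aspartic protease cathepsin D, was at 1469 ± 395 and 953 ± 110.5 normalized counts, a log2 change of -0.59 (limma unadjusted p = 0.00981, adjusted p = 0.713) that was -0.30 with the GC trend removed. Of 17 proton pump subunits, 13 had a lower mean, with a median of -0.07. At an unadjusted limma p under 0.05, 2 were lower, where 3.81% of all tested genes were. They were Atp6ap2 at -0.41 and Tcirg1 at -0.61, or -0.57 and -0.27 with the GC trend removed. Of 15 retromer and AP-1 coat genes, which return receptors or form carriers, 5 had a lower mean, with a median of 0.10 that turned to -0.06 with the GC trend removed. Of the 15, 2 were lower and 1 was higher at an unadjusted limma p under 0.05, beside 3.81% and 2.01% of all tested genes. By rank of p the first were the adaptor subunit Ap1b1, lower at -0.89 (limma unadjusted p = 0.0111), and the sorting nexin Snx1, higher at 0.48 (unadjusted p = 0.0257). Of 6 genes of the Tfeb family and the folliculin complex, 4 had a lower mean with a median of -0.10, and Tfeb itself was at -0.57 (limma unadjusted p = 0.0505) and at -0.16 with the GC trend removed.

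In sorted bulk samples, fewer cells of another type and less RNA per cell cannot be told apart, and macrophages carry many lysosomal transcripts. Of 16 monocyte and macrophage markers, 8 were listed, with none at 0 in any library. Of these, 5 had a lower and 3 a higher mean log2 value in RragcS74N/+. The median was -0.39, or -0.27 with the GC trend removed, and 0 of the 8 had an unadjusted p under 0.05 by limma. Csf1r, the receptor for macrophage colony-stimulating factor, ranged from 85.2 to 339 normalized counts in Rragc+/+ and from 71.1 to 133 in RragcS74N/+ libraries, and C1qb from 11.2 to 30.4 and from 4.64 to 18.3. The summed list ranged from 2306 to 3569 and from 2336 to 4123, but Ly6c2 alone made up 2099.6 to 3093 and 2078 to 3919 of it. The sum of the other 7 genes, a measure chosen after the values were seen, ranged from 207 to 487 in Rragc+/+ and from 188 to 258 in RragcS74N/+ libraries, which overlapped. It was highest in Rragc+/+ replicate 2, and it was 299 in Rragc+/+ replicate 5 and 204 in RragcS74N/+ replicate 4, the libraries with the lowest soluble sums. Of 9 erythroid markers, 7 were listed and 6 tested. At an unadjusted limma p under 0.05, 5 of the 6 were lower, where 3.81% of all tested genes were. The median log2 change of the 6 was -1.67. Alas2 was at 0 in 1 RragcS74N/+ library, and the summed erythroid markers ranged from 1091 to 5609 in Rragc+/+ and from 379 to 2158 in RragcS74N/+ libraries. Of 8 eosinophil and basophil markers, 5 were listed with none at 0, 4 of the 5 had a higher mean in RragcS74N/+ and the median log2 change was 0.89. The granule protein gene Prg2 was the 1 among them with an unadjusted p under 0.05 by limma (log2 change 1.38, unadjusted p = 0.0394, adjusted p = 0.713). Their sums ranged from 113 to 426 in Rragc+/+ and from 122 to 583 in RragcS74N/+ libraries. The part of these cells in the values of the lysosomal members was not tested.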

How the data were processed

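RNA of sorted bone marrow neutrophils was made into QuantSeq 3′-end libraries with molecular identifiers (5 Rragc+/+, 4 RragcS74N/+). According to the labels and the published methods, the authors mapped reads to GRCm39 with TopHat2 (version 2.0.10), counted them per gene with HTSeq (version 0.6.1) and divided them by a size factor. The deposited values are therefore a signal scaled from counts. Whether reads were collapsed by identifier is not given in the sources used here, so depth covers counting error only. Dividing by the worth of 1 read gave whole numbers for 100% of values (tolerance 0.01 reads), taken as the recovered reads. Libraries of a genotype differed beyond sampling noise (lowest chi-square divided by its degrees of freedom 5.47 among 16 pairs). Replicate numbers follow accession order and pair nothing.

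A mean of 10 or more was required for testing on log2(value + 1), which understates changes of low genes, with limma (version 3.58.1, R 4.3.3), trended moderation and Benjamini-Hochberg adjustment over all 6673 genes. "Lower" or "higher" for a member that missed the adjusted threshold describes its values. Alternatives were edgeR (version 4.0.16) and DESeq2 (version 1.42.0, which gave no adjusted p for 8 genes) on recovered reads, pseudocount 5, no filter, a mean of at least 50, TMM, equal totals, no trend in the moderation, array quality weights, removal of a 3′ GC trend (last 500 nucleotides of GENCODE transcripts of assembly GRCm38, 7067 of 7197 genes matched by symbol) and each library left out. The main limma fit and edgeR were also run on simulated counts. At an adjusted p under 0.05, the limma fit called 56.8% of simulated log2 changes of 1 in either direction and 98.1% of those of 2. Smaller changes were not simulated.

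Members and lists were chosen with earlier results of these data known. Values in every library are given for members with an unadjusted p under 0.05 or no overlap, the 3 highest means of each class, Gnptab, Gnptg, M6pr, Igf2r and Sort1. Genes of other lists are named by lowest p, at most 2 per list, apart from the defining markers. Early granule and platelet markers (5 genes each, 0 listed) gave no value. The 2 listed B cell markers, the 1 T and NK cell marker and the 8 cycling markers had 0 genes with an unadjusted p under 0.05. Promoters came from RefSeq (GRCm38.p6) by symbol.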

Additional observations from a re-analysis of the deposited data

Results flagged for a closer look

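Among 74 genotype groups of member values, 7 held a highest or lowest library whose gap to its nearest neighbour, as a share of the group's range, was above Dixon's critical value for a group of its size. Chance would give about 3.70, or 1 group in 20, and since the groups share libraries the 2 numbers were not tested against each other. Psap was low in Rragc+/+ replicate 5, with 814 normalized counts against 1416 to 1516 in the other 4 libraries, a gap of 0.859 of the range. Laptm5 was low in the same library, with 525 against 938 to 993 and a gap of 0.882. Smpd1, the acid sphingomyelinase, was low in RragcS74N/+ replicate 4, with 11.5 against 24.1 to 24.5 and a gap of 0.967. Acp2, the acid phosphatase, was high in Rragc+/+ replicate 2, with 42.1 against 15.9 to 17.8 and a gap of 0.929. Npc1 was high in RragcS74N/+ replicate 1, with 51.1 against 19.9 to 24.1 and a gap of 0.864. Laptm4a was high in Rragc+/+ replicate 1, with 626 against 449 to 487 and a gap of 0.782, and low in RragcS74N/+ replicate 1, with 418 against 507 to 512 and a gap of 0.948.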

How the results depend on the processing

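The number of members past the adjusted threshold was 0 in each of the 19 alternatives. Of 636 log2 changes of single members under an alternative, 597 kept their direction and 39, in 17 members, changed sign. The number of members lower at an unadjusted p under 0.05 was 6 with array quality weights, a fit in which 6.46% of all tested genes were lower, and ran from 1 to 8 as libraries were left out. The class medians over the same removals ran from -0.32 to -0.14 (soluble), -0.24 to -0.05 (membrane) and -0.18 to -0.02 (sorting), and the sorting median was -0.01 with the 3′ GC trend removed. Removal of that trend also gave log2 changes of 0.03 for Neu1, 0.15 for Man2b1, -0.06 for Npc1, -0.10 for Lamp2, 0.05 for Laptm5, -0.01 for Gnptg, -0.04 for Igf2r, 0.000515 for Sort1 and 0.10 for Gga1. Array quality weights gave -0.14 for Npc1, -0.02 for Ctns and 0.03 for Laptm4a. Igf2r was at -0.06 with edgeR and -0.05 with DESeq2. With each library left out, Man2b1 ran from -0.15 to 0.06, Asah1 from -0.10 to 0.19, Tpp1 from -0.20 to 0.07, Ids from -0.21 to 0.10, Hgsnat from -0.24 to 0.10, Npc1 from -0.27 to 0.17, Lamp2 from -0.01 to 0.13, Cd63 from -0.06 to 0.23, Ctns from -0.12 to 0.33, Laptm4a from -0.05 to 0.07, M6pr from -0.01 to 0.63 and Igf2r from -0.17 to 0.24. The cause of these changes was not tested. No paired analysis was possible because replicates carry no number in the labels that could link a Rragc+/+ with a RragcS74N/+ library. Members with under 20 reads in a library, such as Ctns, M6pr, Igf2r, Smpd1 and Acp2, are limited by depth.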
